A study of Mus musculus with 9 samples.

Results

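The genes described here encode the receptors for tumour necrosis factor (TNF), the TRAF adaptors that carry its signal inside the cell, and the ubiquitin ligases bound to those adaptors. They were taken by symbol from a table of read counts in mouse bone marrow-derived macrophages: Tnfrsf1a, Tnfrsf1b, Traf1, Traf2, Traf3, Traf5, Traf6, Tank, Birc2 and Birc3. All 10 were among its 13593 genes, and all 10 passed the filter on low counts that left 12915 genes for testing. The macrophages were grown from marrow of wild-type C57BL/6 mice aged 6 weeks, in medium with 15% supernatant of L929 cells for 7 days. For 4 h they were then kept with 4 nM of one protein: the chemokine CX3CL1, the chemokine CCL26, or, as control, bovine serum albumin (BSA). Each treatment had 3 libraries. Per the series title CX3CL1 and CCL26 are both CX3CR1 ligands, and the comparisons ask how each acts on these cells and whether they differ. Whether libraries of a group stem from different mice or dishes is not stated in the labels. The p-values therefore rest on the spread between these libraries alone, which may be technical.

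TNF binds a pair of receptors. Tnfrsf1a encodes the receptor with a death domain, which is found on most cell types and can signal either to inflammatory gene expression or to cell death. Tnfrsf1b encodes the receptor without a death domain, which binds TRAF2 directly and is most prominent on blood and immune cells. TRAF2, with TRAF3 and the ligases cIAP1 (Birc2) and cIAP2 (Birc3), forms a complex that holds down the kinase NIK (Map3k14) in resting cells and passes the signal on from stimulated receptors. Several of these genes, Traf1 and Birc3 above all, are textbook targets of the transcription factor NF-kB, which the pathway itself activates.

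Total counts per library ran from 16923982 to 23198324. CX3CL1 replicate 1 stood apart, with 1193 genes without a count against 80 to 170 in the other 8 libraries. For 7 of the 10 genes its level lay outside the range of the other 8 libraries, as it did for 78.9% of all tested genes. It was below that range for Traf1, Traf3, Traf6, Tank, Tnfrsf1b and Birc3 and above it for Traf2. Since 1 model shared the estimate of the spread between all libraries, results of every comparison are given with all 9 libraries and again without this library. The macrophage genes Adgre1 and Csf1r were abundant, at 3048 ± 23.7 and 1261 ± 9.91 CPM with BSA (SD, n = 3; CPM are read counts scaled to one common library size). Mpo, which marks granulocyte precursors, was at 0.554 ± 0.327 CPM and the fibroblast gene Col1a1 at 0.465 ± 0.481 CPM. Other granulocyte genes were higher, such as Csf3r at 46.8 ± 2.46 and S100a9 at 21.6 ± 1.25 CPM.

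On GRCm38 (GENCODE M21), Traf1 lies on chromosome 2 from 34941750 to 34961772, Traf2 on chromosome 2 from 25517982 to 25546940, Traf6 on chromosome 2 from 101678429 to 101701669 and Tank on chromosome 2 from 61578585 to 61654171. Traf3 lies on chromosome 12 from 111166370 to 111267153 and Traf5 on chromosome 1 from 191997205 to 192092559. Tnfrsf1a is on chromosome 6 from 125349362 to 125362484 and Tnfrsf1b on chromosome 4 from 145213463 to 145246870. Birc2 (chromosome 9, 7818227 to 7837064) and Birc3 (chromosome 9, 7848699 to 7873186) are neighbours. Of the stretches of 100 bases in their annotated transcripts, 0.33% for Birc2 and 1.76% for Birc3 also occur in another gene, and none do for the other 8. Exons of Traf5 overlap those of the antisense gene Gm26879 over 205 of 4566 bases, and without knowledge of strand such reads cannot be told apart.

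The 250 bases before the start of 4 of these genes are shown because they include both directions for CCL26 against BSA: Birc3, Traf1 and Traf3 were called higher and Tnfrsf1a lower in the fit without CX3CL1 replicate 1, of which only Traf1 passed with all 9 libraries. Both the sequences and the starts are RefSeq's on GRCm38.p6, read 5′ to 3′ on the strand of the gene. These starts can differ from the GENCODE bounds given above. The window of Tnfrsf1a lies inside those bounds, and that of Birc3 overlaps them. Capitals mark matches to a loose form of the NF-kB motif (GGG, any 5 bases, then CC) on either strand. The windows of Birc3, Traf3 and Tnfrsf1a hold 1 match each and that of Traf1 none.
Birc3 (chr9:7873171-7873420, minus strand): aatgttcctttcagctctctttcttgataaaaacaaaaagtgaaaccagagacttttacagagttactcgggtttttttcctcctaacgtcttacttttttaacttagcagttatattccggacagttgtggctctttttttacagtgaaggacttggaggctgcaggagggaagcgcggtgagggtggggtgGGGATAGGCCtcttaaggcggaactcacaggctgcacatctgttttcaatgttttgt
Traf3 (chr12:111166120-111166369, plus strand): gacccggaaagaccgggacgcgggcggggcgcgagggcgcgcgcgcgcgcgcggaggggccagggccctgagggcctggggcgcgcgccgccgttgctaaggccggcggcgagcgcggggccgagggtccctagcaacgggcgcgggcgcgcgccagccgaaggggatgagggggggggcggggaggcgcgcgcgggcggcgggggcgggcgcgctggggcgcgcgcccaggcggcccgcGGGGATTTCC
Traf1 (chr2:34961773-34962022, minus strand): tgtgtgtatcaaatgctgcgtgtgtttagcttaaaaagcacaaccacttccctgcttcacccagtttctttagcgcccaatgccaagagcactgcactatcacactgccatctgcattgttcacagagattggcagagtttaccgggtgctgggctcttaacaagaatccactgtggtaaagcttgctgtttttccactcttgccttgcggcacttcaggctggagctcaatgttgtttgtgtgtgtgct
Tnfrsf1a (chr6:125349473-125349722, plus strand): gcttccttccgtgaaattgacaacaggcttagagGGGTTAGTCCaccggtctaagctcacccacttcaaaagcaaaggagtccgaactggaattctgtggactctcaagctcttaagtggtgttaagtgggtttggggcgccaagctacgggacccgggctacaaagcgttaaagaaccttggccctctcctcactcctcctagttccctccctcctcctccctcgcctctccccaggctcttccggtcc
In Traf3 the match ends at the base before the start of the gene, and in Birc3 it lies from -57 to -48. RefSeq's table held a window for all 10 genes, with 4 for Tank and 2 for Birc2. Traf2, Traf3, Traf5, Traf6, Tank, Tnfrsf1a, Tnfrsf1b and Birc3 had a match, while Traf1 and both windows of Birc2 had none. The motif was in 45.8% of all 32851 windows of this length, so a match was common. The interferon response core (GAAA, any 2 bases, then GAAA), present in 2.98% of all windows, was found only in Tnfrsf1b among the 10, from -10 to -1. The AP-1 motif TGANTCA, in 6.75% of all windows, was found only in 1 window of Tank. A match is a run of letters and not a shown binding site.

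Levels per kilobase of exon, which allow genes to be compared, spanned a wide range with BSA. Tnfrsf1b was highest at 149 ± 2.48 CPM per kb (SD, n = 3), followed by Tnfrsf1a at 71.8 ± 3.69 and the TRAF-binding adaptor gene Tank at 33.7 ± 0.36. Birc3 stood at 11.3 ± 0.576, Traf3 at 8.58 ± 0.303, Traf2 at 7.20 ± 0.571 and Traf6 at 6.84 ± 0.078 CPM per kb. Birc2 (1.86 ± 0.179), Traf5 (1.21 ± 0.221) and Traf1 (0.747 ± 0.109) were the lowest. Every neighbour in this order was separated in the BSA libraries except Traf2 and Traf6, whose ranges overlapped. With CCL26 the order changed in the lowest places: Traf1 came to 2.49 ± 0.346 CPM per kb, above Traf5 at 0.968 ± 0.0641 and overlapping Birc2 at 2.79 ± 0.447. These values use the summed length of all annotated exons, so a gene whose main transcript is shorter than that sum is understated.

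**Figure D1:**
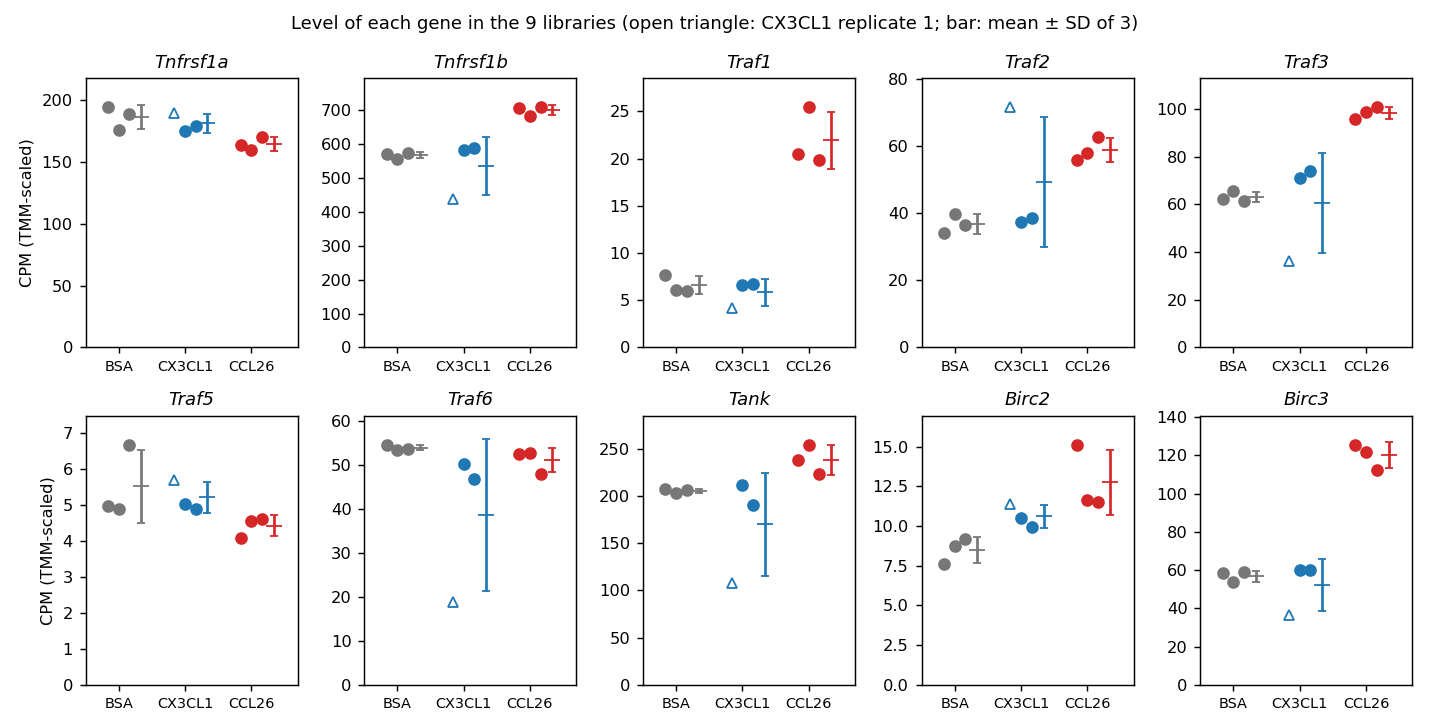
Level of each of the 10 genes in CPM, scaled by TMM factors, in the 3 libraries per treatment (points, replicates 1 to 3 from left to right) with the mean and SD beside them. The CCL26 libraries lie above the BSA libraries for Traf1, Traf2, Traf3, Tank, Tnfrsf1b, Birc2 and Birc3 and below them for Tnfrsf1a, Traf5 and Traf6. CX3CL1 replicate 1 (open triangle) lies far from its replicates for Traf2, Traf3, Traf6 and Tank. It also lies below all other libraries for Traf1, Tnfrsf1b and Birc3.

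The first comparison asks which of these genes differed between macrophages given CCL26 and those given BSA. Levels of Traf1, Birc3, Traf2, Traf3, Birc2, Tnfrsf1b and Tank were higher with CCL26, from 3.33-fold for Traf1 and 2.11-fold for Birc3 down to 1.16-fold for Tank, and those of Tnfrsf1a were lower at 0.883-fold. With all 9 libraries only Traf1 of the 10 passed the test (quasi-likelihood F test in edgeR, with p-values adjusted by the Benjamini-Hochberg method and called under 0.05), where 0.434% of all tested genes were called, 0.387% higher and 0.0465% lower. Without CX3CL1 replicate 1, which belongs to neither group but enters the shared spread, the scaling, the filter and the set of genes over which p is adjusted, all 7 of these genes rose and Tnfrsf1a fell, where 19% of all tested genes were called, 9.74% higher and 9.26% lower. Traf5 and Traf6 did not pass in either fit. The median log2 fold change of the 10 was 0.44 with all 9 libraries and 0.45 without that library, beside 0.0044 and 0.0082 for all tested genes. In RNA from whole cultures, fewer cells of a type and less RNA per cell cannot be told apart.

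For each of the 10 genes the CCL26 and BSA libraries did not overlap, with CCL26 above for 7 and below for 3. Among all tested genes 16.6% had CCL26 above in this way and 16.5% below. For Tnfrsf1a, Traf5 and Traf6 the gap was narrow, and for Traf5 and Traf6 it came without a call.

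The receptors had differences of opposite sign. Tnfrsf1b was at 571, 556 and 574 CPM in BSA replicates 1 to 3, at 436, 582 and 587 with CX3CL1, and at 706, 683 and 708 with CCL26. All CCL26 libraries were above all others, and the spread among them was small beside the gap. The log2 fold change over BSA was 0.30 in both fits, with an SE of 0.129 and edgeR adjusted p = 0.781 using all 9 libraries and an SE of 0.0336 and adjusted p = 2.28e-07 without CX3CL1 replicate 1. Tnfrsf1a was at 194, 175 and 188 CPM with BSA, 190, 175 and 179 with CX3CL1, and 163, 160 and 170 with CCL26. The highest CCL26 library was just under the lowest BSA and CX3CL1 libraries. Its log2 fold change was -0.18 (SE 0.101, edgeR adjusted p = 0.964) with all 9 libraries and -0.18 (SE 0.0496, adjusted p = 0.0131) without CX3CL1 replicate 1. The latter call was lost when BSA replicate 1 (adjusted p = 0.0929), BSA replicate 3 (0.0564) or CCL26 replicate 2 (0.0611) was left out too.

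Set against each other within a library, which needs no scaling, the receptors had a higher ratio with CCL26. There were 2.94, 3.17 and 3.04 reads of Tnfrsf1b per read of Tnfrsf1a with BSA and 4.33, 4.28 and 4.16 with CCL26. With CX3CL1 the ratios were 2.30, 3.33 and 3.29, the first in the library that stood apart. These are ratios of read counts and not of transcripts, since the genes differ in length.

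Among the adaptors Traf1 had the largest difference; it encodes the TRAF without a RING domain, which binds TRAF2. It was at 7.70, 6.07 and 6.00 CPM with BSA, at 4.17, 6.66 and 6.72 with CX3CL1, and at 20.5, 25.4 and 19.9 with CCL26. Every CCL26 library was above every other library, and the lowest of them held 366 reads of the gene against a highest of 159 elsewhere. The log2 fold change over BSA was 1.73 (SE 0.226, edgeR adjusted p = 0.0177) with all 9 libraries and 1.74 (SE 0.149, adjusted p = 3.08e-09) without CX3CL1 replicate 1. With CX3CL1 replicate 1 kept, the call was lost when any 1 of the 6 BSA and CCL26 libraries was left out (adjusted p from 0.0879 to 0.172), while the log2 fold change stayed between 1.61 and 1.86. With CX3CL1 replicate 1 left out, it was kept in all 8 fits that left out 1 more library.

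Traf2 encodes the adaptor that binds the TNF receptor complex and recruits the cIAP ligases. It was at 34, 39.8 and 36.5 CPM with BSA and at 55.7, 57.8 and 62.8 with CCL26, so that the groups were well apart. With CX3CL1 the values were 71.5, 37.3 and 38.5, the first from the library that stood apart. The log2 fold change of CCL26 over BSA was 0.68 in both fits, with a 95% interval from 0.13 to 1.22 (edgeR adjusted p = 0.589) using all 9 libraries, and from 0.51 to 0.85 (adjusted p = 8.26e-07) without that library.

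Traf3, which restrains NIK and also serves Toll-like receptor and antiviral signalling, had a difference of about the size of that of Traf2. Its levels were 62.2, 65.6 and 61.4 CPM with BSA, 36.3, 71.2 and 74.1 with CX3CL1, and 95.7, 99.0 and 101 with CCL26. All CCL26 libraries exceeded all others, and CX3CL1 replicates 2 and 3 lay between the groups. The log2 fold change of CCL26 over BSA was 0.64 (SE 0.236, edgeR adjusted p = 0.624) with all 9 libraries and 0.64 (SE 0.0616, adjusted p = 2.15e-08) without CX3CL1 replicate 1. Tank encodes an adaptor that binds TRAFs and the kinase TBK1. It was at 207, 203 and 206 CPM with BSA, 108, 212 and 190 with CX3CL1, and 238, 254 and 223 with CCL26. Its difference was small (log2 fold change 0.21, edgeR adjusted p = 1 with all 9 libraries, and 0.22, adjusted p = 0.00306 without CX3CL1 replicate 1).

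Traf6 and Traf5 did not pass. Traf6, the adaptor of Toll-like and interleukin-1 receptors, was at 54.6, 53.5 and 53.7 CPM with BSA, 18.7, 50.3 and 46.9 with CX3CL1, and 52.6, 52.8 and 47.9 with CCL26. Its log2 fold change for CCL26 over BSA was -0.08 with all 9 libraries (95% interval -0.77 to 0.61, edgeR adjusted p = 1), an interval that overlaps those of Traf2 and Traf3. Without CX3CL1 replicate 1 it was -0.07 (interval -0.22 to 0.08, adjusted p = 0.556). Traf5, a close relative of Traf2, had few reads, 85 to 118 per library. It stood at 4.98, 4.90 and 6.68 CPM with BSA, 5.70, 5.04 and 4.90 with CX3CL1 and 4.08, 4.56 and 4.61 with CCL26. With all 9 libraries the log2 fold change of Traf5 was -0.32 (95% interval -0.78 to 0.14, edgeR adjusted p = 1). The 95% interval for Traf5 without CX3CL1 replicate 1 ran from -0.74 to 0.11 on the log2 scale (log2 fold change -0.32, edgeR adjusted p = 0.327), so at this depth a moderate fall and no difference could not be distinguished.

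Birc3 and Birc2 encode the cIAP ligases, which attach ubiquitin to RIPK1 and NIK. Birc3 was at 58.2, 53.5 and 58.7 CPM with BSA, 36.7, 60.1 and 59.9 with CX3CL1, and 126, 122 and 112 with CCL26. Every CCL26 library held more than 1.5 times the level of any other library. The log2 fold change over BSA was 1.08 (SE 0.188), just short of the test with all 9 libraries (edgeR adjusted p = 0.06) and past it without CX3CL1 replicate 1 (1.08, SE 0.0644, adjusted p = 4.51e-12). Birc2 was far lower, at 7.59, 8.77 and 9.17 CPM with BSA, 11.4, 10.5 and 9.93 with CX3CL1, and 15.1, 11.7 and 11.5 with CCL26. The CCL26 libraries of Birc2 were above the CX3CL1 libraries, and these above the BSA libraries, with narrow gaps. Its log2 fold change over BSA was 0.59 (SE 0.172, edgeR adjusted p = 0.416) with all 9 libraries and 0.59 (SE 0.152, adjusted p = 0.00667) without CX3CL1 replicate 1, and the latter call was lost when CCL26 replicate 1 was left out too (0.45, adjusted p = 0.0682).

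The balance of the neighbouring ligase genes was read in the same way. There were 7.67, 6.10 and 6.40 reads of Birc3 per read of Birc2 with BSA, and 8.30, 10.5 and 9.77 with CCL26. The CX3CL1 libraries had 3.22, 5.71 and 6.03. The CCL26 ratios were the highest, though the lowest of them was close to the highest BSA ratio.

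**Figure D2:**
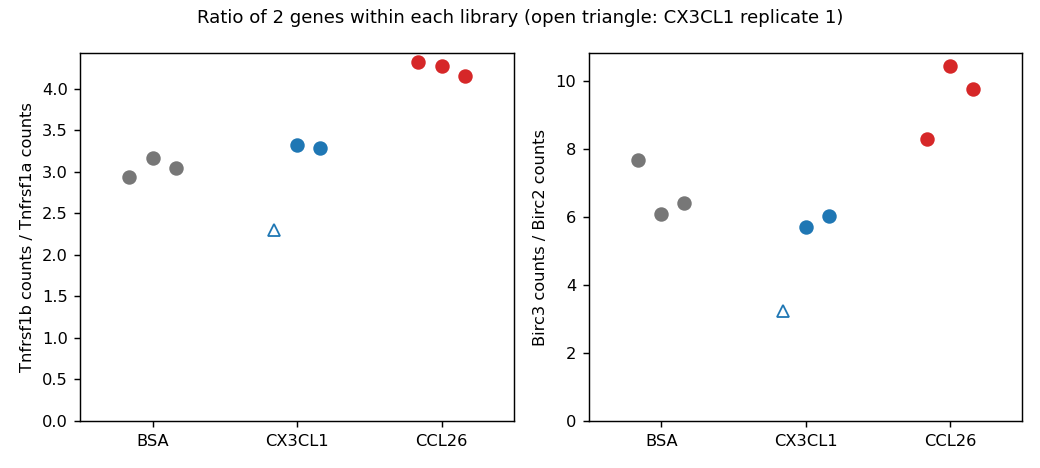
Reads of Tnfrsf1b per read of Tnfrsf1a (left) and of Birc3 per read of Birc2 (right) within each of the 9 libraries, with both axes from 0 and points for replicates 1 to 3 from left to right. The 3 CCL26 libraries are highest in both panels, at 4.16 to 4.33 for the receptors and 8.30 to 10.5 for the ligases, and CX3CL1 replicate 1 (open triangle) is lowest.

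The second comparison asks whether CX3CL1 itself moved these genes. None of the 10 passed the edgeR test against BSA in either fit, where 0% of all tested genes passed with all 9 libraries and 0.332% without CX3CL1 replicate 1 (0.0227% higher and 0.31% lower). DESeq2 also called 0 of the 10 in both, and 0% and 0.657% of all tested genes. In 1 of these fits it gave no adjusted p for Traf1, Traf5 and Birc2, which could not be called there. At an unadjusted p under 0.05 edgeR had none of the 10 with all 9 libraries, where 405 of all 12915 tested genes had one. Without CX3CL1 replicate 1, where 991 of all 13245 tested genes did, it had 1 of the 10. That gene was Traf3, at 72.7 ± 2.06 CPM in CX3CL1 replicates 2 and 3 against 63.1 ± 2.23 with BSA (log2 fold change 0.20, 95% interval 0.06 to 0.35, edgeR adjusted p = 0.382).

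Without CX3CL1 replicate 1, the log2 fold changes for CX3CL1 against BSA ran from -0.15 for Traf6 to 0.27 for Birc2, with a median of 0.03. The intervals were narrow for the abundant genes: -0.03 to 0.12 for Tnfrsf1b, -0.19 to 0.04 for Tnfrsf1a and -0.07 to 0.23 for Birc3. Traf1 had 0.02 with an interval from -0.35 to 0.39, which lies wholly under its value with CCL26. Birc2 was the 1 gene whose 3 CX3CL1 libraries were all above the 3 BSA libraries (4.77% of all tested genes were), with a log2 fold change of 0.32 (edgeR adjusted p = 0.711) in the fit of all 9. With that treatment's replicate 1 left out, the groups did not overlap for 4 genes that were higher, Traf3, Tnfrsf1b, Birc2 and Birc3 (12.6% of all tested genes were), and for Traf6, which was lower (13.2% were). Traf6 was the 1 gene with all 3 below (6.93% of all tested genes were), at -0.48 (adjusted p = 0.711) with all 9 libraries. With CX3CL1 replicate 1 included, Traf1, Traf3, Tnfrsf1b and Birc3 had negative log2 fold changes that turned positive without it. The higher levels given above for Traf3, Tnfrsf1b and Birc3 are those without that library. As the sign depended on it, no direction is concluded for Traf1, Traf3, Tnfrsf1b or Birc3.

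**Figure D3:**
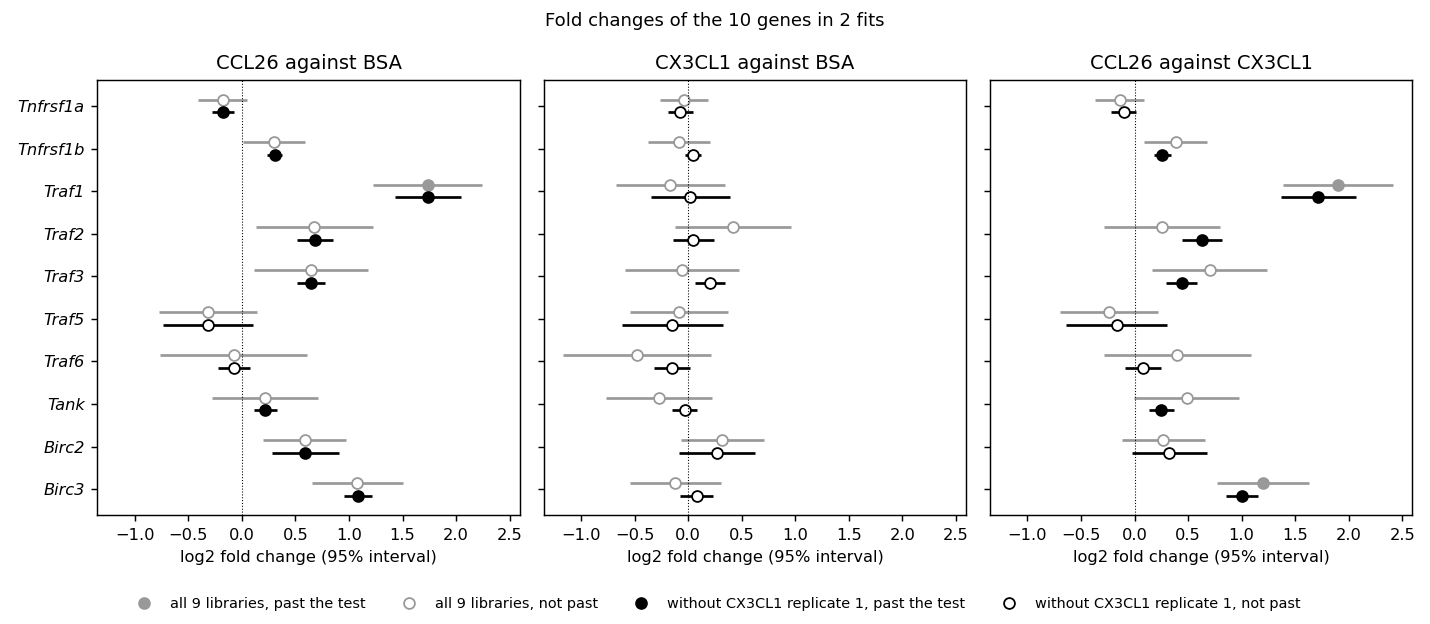
Log2 fold changes of the 10 genes with 95% intervals in the 3 comparisons, from the fit of all 9 libraries (grey) and the fit without CX3CL1 replicate 1 (black); filled points passed the edgeR test at an adjusted p under 0.05. The estimates for CCL26 against BSA barely move between the fits while their intervals shrink, and no point is filled for CX3CL1 against BSA.

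The third comparison tests the chemokines against each other. It uses the same CCL26 libraries as the first, so the results are not independent. With all 9 libraries Traf1 (log2 fold change 1.90, SE 0.227, edgeR adjusted p = 0.0101) and Birc3 (1.20, SE 0.188, adjusted p = 0.0358) were higher with CCL26 than with CX3CL1, and none was lower; of all tested genes 0.41% were called, 0.395% higher and 0.0155% lower. Without CX3CL1 replicate 1, 6 of the 10 were higher and none lower, where 10.1% of all tested genes were called, 5.47% higher and 4.64% lower. They were Traf1 (1.72), Birc3 (1.0), Traf2 (0.63), Traf3 (0.44), Tnfrsf1b (0.26) and Tank (0.25), with edgeR adjusted p from 3.04e-10 for Birc3 to 0.00455 for Tank. The call of Tank was lost when CX3CL1 replicate 3 was left out as well (0.17, adjusted p = 0.202), which left 1 CX3CL1 library whose spread was taken from the other groups.

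Birc2, which rose over BSA, was not past the test against CX3CL1 (log2 fold change 0.33, 95% interval -0.02 to 0.67, edgeR adjusted p = 0.264, without CX3CL1 replicate 1). Tnfrsf1a had -0.10, with an interval from -0.22 to 0.01. With all 9 libraries the call of Traf1 was lost without any 1 of the CCL26 replicates (adjusted p from 0.0535 to 0.0744). That of Birc3 was lost without any 1 library other than CX3CL1 replicate 1 (adjusted p from 0.0797 to 0.233). The 9 libraries did not overlap between CCL26 and CX3CL1 for Traf1, Traf3, Tank, Tnfrsf1b, Birc2 and Birc3, which were higher with CCL26 (12.9% of all tested genes were), or for Tnfrsf1a and Traf5, which were lower (9.76% were). Fitted on the 6 libraries of these groups alone, none of the 10 passed (edgeR), where 0.0321% of all tested genes were called. In that fit 4 of the 10 had an unadjusted p under 0.05. The share of all tested genes at that unadjusted p was not counted, so this number cannot be weighed against it. Traf2 was the gene whose value depended most on CX3CL1 replicate 1, with 0.26 in the fit of all 9 and 0.63 without it.

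Beyond the 10, 114 further genes of the pathway were listed, of which 97 were tested with all 9 libraries and 98 without CX3CL1 replicate 1. For CCL26 against BSA 4 rose and none fell with all 9 libraries, and 26 rose and 6 fell in the fit of 8, with a median log2 fold change of 0.08 in both. Of all tested genes 0.387% rose and 0.0465% fell with all 9 libraries, and 9.74% rose and 9.26% fell in the fit of 8; the counts of each list below stand against these shares. Among the ligands, Tnf itself went from 39.7 ± 1.48 CPM with BSA to 75.7 ± 5.56 with CCL26 (SD, n = 3), a rise of 0.93 on the log2 scale (SE 0.124, edgeR adjusted p = 0.0205). Tnfsf15, which encodes the ligand TL1A, rose as well, with 5.98 ± 0.74 and 19.4 ± 1.07 CPM (1.70, SE 0.2, edgeR adjusted p = 0.0113). Of 12 tested ligand genes 2 rose with all 9 libraries and 3 without CX3CL1 replicate 1, the third being Tnfsf10, which encodes TRAIL (1.38), and none fell.

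Of all 97 pathway genes 20 had an unadjusted p under 0.05 with edgeR and all 9 libraries, beside 792 of all 12915 tested genes. DESeq2 called 8 of the 97, and 1.92% of all tested genes. Of 16 other receptors of the superfamily none passed the edgeR test with all 9 libraries. Without CX3CL1 replicate 1, 3 of these receptors rose and 2 fell. Fas, the death receptor for FasL, rose from 34.7 ± 4.23 to 68.4 ± 7.32 CPM (log2 fold change 0.99), Tnfrsf14, which encodes the LIGHT receptor HVEM, rose by 0.61, and Tnfrsf12a, which encodes the TWEAK receptor, fell from 29.9 ± 2.53 to 15.7 ± 4.02 CPM (-0.93). The others that passed were Cd40 (0.58), the receptor for CD40 ligand, and Tnfrsf26 (-0.27). Of 13 other TRAF-domain and TRAF-binding genes 3 rose in that fit, Trafd1 (0.57), Tifa (0.25), which encodes a partner of TRAF6, and Traf3ip1 (0.75); none fell and none passed with all 9.

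Among 12 genes of the death domain and caspase-8 complex, 5 rose and 1 fell without CX3CL1 replicate 1, and none passed with all 9. Cflar, the inhibitor of caspase-8 activation, rose from 274 ± 4.03 to 454 ± 8.38 CPM (0.73, edgeR adjusted p = 1.47e-12), and Xiap, another inhibitor of apoptosis, rose by 0.31. The others that rose were Tradd (0.39) and Fadd (0.54), which encode death domain adaptors, and Htra2 (0.42), which encodes a mitochondrial protease. Ripk1, the kinase to which the cIAPs attach ubiquitin, fell from 238 ± 6.57 to 202 ± 13.5 CPM (-0.23, adjusted p = 0.00113). The ubiquitin enzymes and editors held 2 that rose with all 9 libraries: Tnip3, a partner of A20 (log2 fold change 0.90, adjusted p = 0.0226), and Usp18, which removes ISG15 (1.27, adjusted p = 0.0146). Without CX3CL1 replicate 1, 8 of these 20 rose, among them Tnfaip3, which encodes A20 (98.6 ± 1.70 to 148 ± 6.32 CPM, 0.59, adjusted p = 1.3e-08). The 2 that fell were Tax1bp1, which encodes a partner of A20 (-0.21), and Spata2, which encodes a partner of CYLD (-0.22).

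Of 20 kinases and adaptors below the TRAFs, 3 rose and 1 fell without CX3CL1 replicate 1: Irak2 (0.67), Irak3 (0.46) and the IKK subunit gene Ikbkg (0.41) rose, and Tab2, which encodes an adaptor of the kinase TAK1, fell (-0.16). None passed against BSA with all 9 libraries, while Irak2 did against CX3CL1 (log2 fold change 0.83, edgeR adjusted p = 0.0328). Of the 5 tested genes of receptor shedding and silencing, Adam17, the protease that releases TNF and its receptors, rose slightly in the fit of 8 libraries (552 ± 12.6 to 605 ± 31 CPM, 0.14, adjusted p = 0.0129). For CX3CL1 against BSA none of these genes passed with edgeR in either fit. At an unadjusted p under 0.05 edgeR had 5 of 97 with all 9 libraries, beside 405 of all 12915 tested genes. Without CX3CL1 replicate 1 it had 8 of 98, beside 991 of all 13245. DESeq2 called 0 and 1 of them in these fits, and 0% and 0.657% of all tested genes. The smallest p without that library was that of Tnfaip3 (-0.26, adjusted p = 0.0787). Against CX3CL1 with all 9 libraries, edgeR called 4 of the 97 higher with CCL26 and none lower (Tnf, Tnfsf15, Tnip3 and Irak2). Of all tested genes it called 0.395% higher and 0.0155% lower. DESeq2 called 8 of the 97 higher and 1 lower, beside 183 higher and 68 lower of all 12915 tested genes. In the fit of 8 edgeR called 18 higher and 2 lower, where 5.47% of all tested genes were higher and 4.64% lower.

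**Figure D4:**
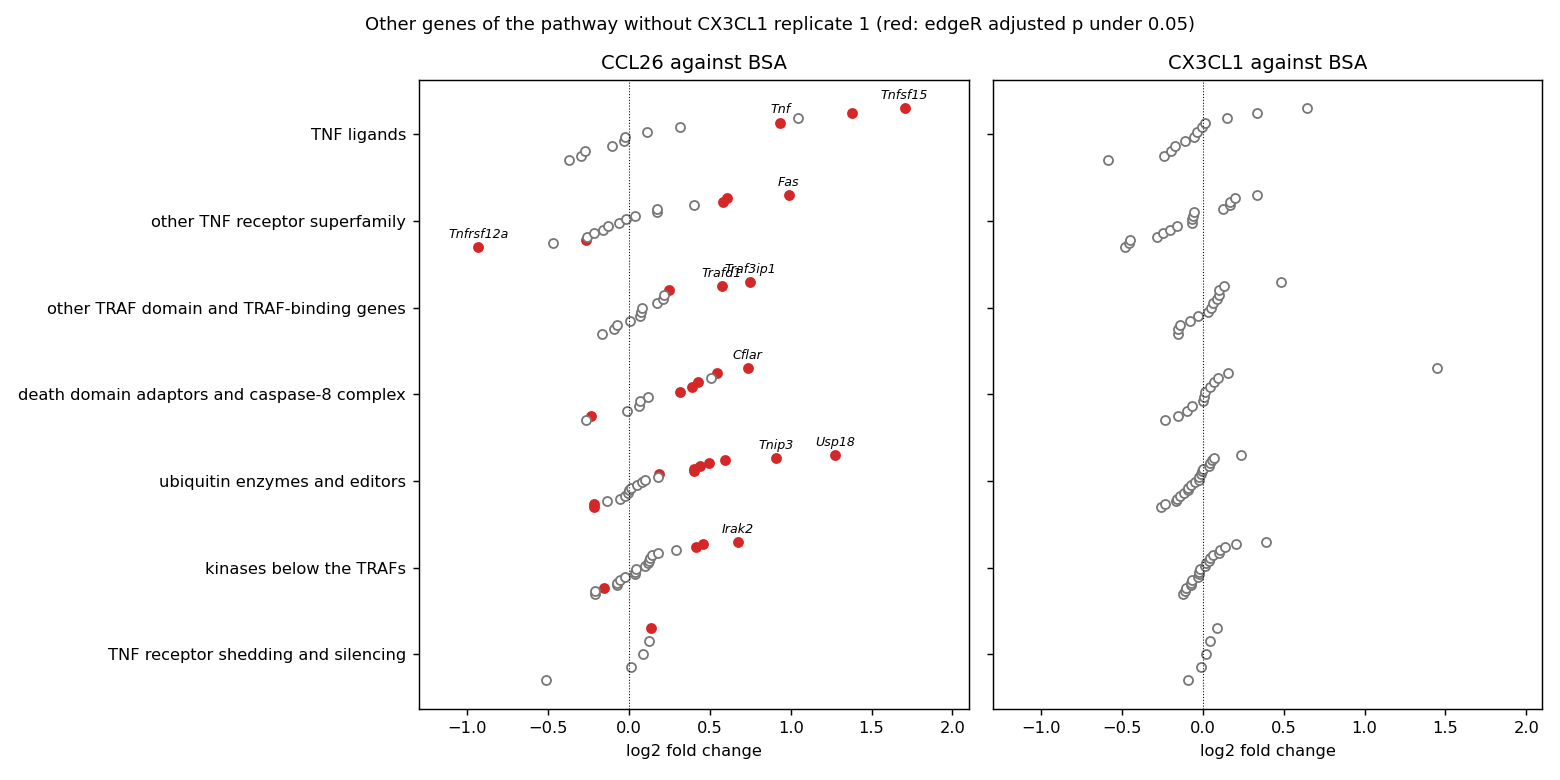
Log2 fold changes of the 98 other pathway genes tested without CX3CL1 replicate 1, by list, for CCL26 against BSA (left) and CX3CL1 against BSA (right) on one scale; each point is a gene, ordered by its value within the list, and red points passed the edgeR test at an adjusted p under 0.05. On the left 26 red points lie above 0 and 6 below it, and on the right none is red.

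Markers of other cells were read beside these results. The summed level of 10 macrophage genes was 30006 to 30558 CPM with BSA, 24395 to 24854 with CCL26 and 28187 to 42861 with CX3CL1, the highest in replicate 1. Without that library 6 of the 10 were called lower with CCL26 than with BSA and none higher. The 10 granulocyte genes in the table, of 12 listed, summed to 109 to 119 CPM with BSA, 139 to 145 with CCL26 and 120 to 217 with CX3CL1, and Csf3r, S100a8 and S100a9 were called higher with CCL26 in the same fit. Of the other lists, 1 of 10 T and NK cell genes (Cd28), 2 of 6 B cell genes and none of 6 mast cell and basophil genes were in the table, and Cd3e was not among them. Cd28 was at 102 to 109 CPM with BSA, 85.2 to 101 with CCL26 and 38.4 to 105 with CX3CL1. The B cell genes summed to 23.2 to 25.5 CPM with BSA, 17.3 to 21.0 with CCL26 and 21.9 to 70.9 with CX3CL1. For 2 of 7 erythroid and megakaryocyte genes the sums were 81.4 to 84.0, 65.9 to 73.2 and 83.6 to 261 CPM in the same order. Sums for 5 of 7 dendritic cell genes were 10.2 to 11.9 CPM with BSA and 8.96 to 9.98 with CCL26, and those of 4 of 6 stromal genes 0.821 to 2.35 and 1.63 to 2.39. Pf4 of the erythroid and megakaryocyte genes and Cd79b of the B cell genes were called lower with CCL26 in the fit of 8 libraries. The part of other cells in the results for the TNF receptor and TRAF genes was not tested.

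The genes most like Traf1, Birc3 and Birc2, which had the smallest p for CCL26 against BSA with all 9 libraries, were found by Pearson's correlation of log2 CPM over the 9 libraries, which share the contrast between treatments. For Traf1 they were Tnfsf15 (r = 0.994), Slfn8 (0.989) and Rsad2 (0.989). For Birc3 they were Cd274 (0.995), Parp14 (0.995) and Slfn8 (0.994). All 6 of these correlations were at least 0.986 without CX3CL1 replicate 1. For Birc2 the closest were Dus4l (0.944), Rgp1 (0.943) and Sars2 (0.929).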

How the data were processed

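Per the labels' protocols, RNA from a column kit went into NEBNext Ultra II libraries that were read from both ends. The authors deposited 1 table of whole-number counts per gene, not normalized. STAR, featureCounts and MultiQC are named, without versions or order, per the submitters' processing notes, with the builds GRCm38 and mm10; strand setting and filters are not given in the sources used here.

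Columns were matched to libraries by the code in the labels. Genes passed filterByExpr, scaling used TMM, and 1 model by group was fitted to all 9 libraries with edgeR 4.0.16 in R 4.3.3. P-values were adjusted over all tested genes, 12915 with all 9 libraries and 13245 without CX3CL1 replicate 1. CPM use the TMM-scaled sizes of the 9 libraries, SEs derive from F, and intervals are at 95%. Replicate pairs differed by more than sampling noise (chi-square per degree of freedom 3.91 to 8.65, and 284 and 336 with CX3CL1 replicate 1), so none was taken for 1 library deposited again; this does not show that they come from separate cultures. Members and gene lists were chosen with earlier results of these data known. From each pathway list the text names genes past the test with all 9 libraries, otherwise up to 3 per comparison with the smallest p without CX3CL1 replicate 1. Tnfsf10, Cd40, Tnfrsf26, Tradd, Fadd, Htra2, Tax1bp1, Spata2, Tab2 and Tnfaip3 against BSA, and the marker genes Csf3r, S100a8, S100a9, Cd28, Pf4 and Cd79b, were named once their values were known. Alternatives were RLE scaling, other filters, DESeq2 1.42.0, limma-voom 3.58.1 with quality weights, a replicate block, fits of 6 libraries, and libraries left out.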

Additional observations from a re-analysis of the deposited data

How the results depend on the processing

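The number of the 10 genes called for CCL26 against BSA was 1 with all 9 libraries (0.434% of all tested genes were called), and the same with RLE scaling (0.449%) or no filter (0.412%). It was 2 with a filter of 5 CPM (0.716%) or with DESeq2 (1.92%), and 8 with limma-voom quality weights (19.2%), with the 6 libraries of the compared groups (19.3%), or with DESeq2 without CX3CL1 replicate 1 (19.4%). Leaving out 1 library gave 0 to 8 (0.0676% to 19% of all tested genes), the 8 without CX3CL1 replicate 1 and the 0 without any BSA or CCL26 library. With a second library left out beside CX3CL1 replicate 1 it was 7 to 8 (14.5% to 20.8%). For CCL26 against CX3CL1 it was 2 (0.41%), with 6 under limma-voom weights (10.4%) or DESeq2 without CX3CL1 replicate 1 (11.2%) and 0 with the 6 libraries alone (0.0321%). Leaving out 1 library gave 0 to 6 (0.0755% to 10.1%), and a second one beside CX3CL1 replicate 1 gave 5 to 6 (4.58% to 13.1%). For CX3CL1 against BSA it was 0 in each of these fits. Why the calls moved was not tested, beyond the fewer libraries of some fits.

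Same-numbered libraries correlated from -0.107 to 0.0796 in their deviations from the group mean, and differently numbered ones from -0.116 to 0.122. With 3 libraries per group these values cannot decide whether the numbers pair the libraries. With all 9 libraries the replicate block called 0 of the TNF receptor and TRAF genes in each comparison. For CCL26 against BSA, CX3CL1 against BSA and CCL26 against CX3CL1 it called 0.108%, 0% and 0.0852% of all tested genes. In this order, 5, 0 and 5 of the TNF receptor and TRAF genes had an unadjusted p under 0.05. The share of all tested genes at that unadjusted p was not counted. Without CX3CL1 replicate 1 the block called 8, 0 and 6 of the TNF receptor and TRAF genes. Of all tested genes it then called 19%, 0.121% and 9.06%.

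No log2 fold change of the 10 changed sign in the comparisons with CCL26. For CX3CL1 against BSA 49 values did, none of them called. Traf1, Traf5 and Birc2 had no adjusted p in a DESeq2 fit of this comparison, and their sign there was not counted. Under limma-voom weights Traf1 had 0.039, Traf3 0.20, Tnfrsf1b 0.044 and Birc3 0.082; with the block and without CX3CL1 replicate 1 these had 0.053, 0.19, 0.051 and 0.11; with DESeq2 without that library Traf3 had 0.20, Tnfrsf1b 0.044 and Birc3 0.079. Over fits with libraries left out, Traf1 ran from -0.28 to 0.15, Traf2 from -0.0073 to 0.58, Traf3 from -0.23 to 0.24, Traf5 from -0.23 to 0.071, Tank from -0.46 to 0.043, Tnfrsf1b from -0.16 to 0.053 and Birc3 from -0.24 to 0.10. The cause was not tested. Traf5, Traf1 and Birc2 have the fewest reads, and in the fit without CX3CL1 replicate 1 they have the largest SEs for CCL26 against BSA.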
